A study of Mus musculus with 16 samples.

Results

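The 10 genes described here are Hk1, Hk2, Ldha, Slc16a1, Acot7, Mgst1, Zfp36l1, Arhgdib, Oat and Tgm2. They belong to the genes called disallowed in β cells, the insulin-secreting cells of the pancreatic islet, and were chosen by symbol, so 10 of the 22869 genes of the RNA table are members and all 10 were found. A disallowed gene is one that most tissues use and the mature β cell keeps at a very low level. The best known are Ldha, which turns pyruvate into lactate, Slc16a1, which carries lactate and pyruvate across the cell membrane, and the high-affinity hexokinases Hk1 and Hk2. Low levels of these keep insulin release tied to the glucose level, and keep circulating pyruvate from setting it off.

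The study compared sorted mouse β cells of young and old animals. RNA came from MIP-GFP/Bl6 mice, whose green fluorescent protein is driven by the insulin promoter, with 3 old libraries labelled 15, 16 and 17 months and 2 young libraries labelled 4 to 6 weeks, each from a pool of 5 to 10 mice. Chromatin and bisulfite samples carry the strain label C57Bl6, with old animals labelled 16 to 18 months and young ones 4 to 6 weeks; H3K27me3, a mark of Polycomb repression, H3K4me1, a mark of enhancers and of the flanks of starts, and DNA methylation were each held as 1 sample per age, and H3K27ac, a mark of active elements, for young cells alone. For the old bisulfite pool the design text gives 18 to 22 months instead, and for the young one a pool of 10 mice. It also names 2 old H3K27me3 replicas (pools of 4 to 7 mice), of which 1 list was analysed here, and 3 young RNA replicas, of which 2 were analysed here. No treatment or genotype other than the reporter is named for any group. The young RNA columns carry no replicate number and are called here the shallower and the deeper young library.

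Gene counts summed to 23559906 to 33562820 in the old libraries and to 6377620 and 12892122 in the young ones. β cell markers summed to 331060 to 436590 CPM (read counts scaled to the library total) in old and to 314740 and 256610 CPM in the shallower and deeper young library, and 2 of 9 (Iapp and Slc2a2) rose with age. The summed markers of other cell types were lower in each old library than in either young one, apart from the red cell list (3.28 to 12.7 CPM in old against 5.79 and 28.01 CPM, 0 of 2 tested called). The stellate and fibroblast list summed to 18.4 to 32.8 CPM in old against 560 and 4906 CPM in the shallower and deeper young library, with 10 of 10 genes called lower. The endothelial list summed to 58.7 to 93.5 CPM against 525 and 899 CPM (9 of 9 called lower), the acinar list to 84.3 to 125 CPM against 1393 and 2125 CPM (8 of 9 tested, with Ptf1a at 0 in every old library), and the α cell list to 903 to 1831 CPM against 2008 and 31704 CPM (2 of 6). The δ and PP cell list summed to 228 to 473 CPM in old against 3143 and 9541 CPM (4 of 4), the duct list to 222 to 337 CPM against 695 and 592 CPM (4 of 8), the macrophage and lymphocyte list to 29.0 to 42.7 CPM against 216 and 304 CPM (4 of 11), and the dividing cell list to 6.53 to 7.04 CPM against 382 and 394 CPM (2 of 5 tested). These values move with the RNA results on the disallowed genes below, and their part in those results was not tested. In such bulk libraries, fewer cells of another type and less RNA per cell cannot be told apart.

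The sequence before a start shows what kind of promoter each gene has. RefSeq (GRCm38.p6) held the 250 bases before the start for 9 of the 10 genes. For the 6 starts shown, each CpG of the sequence had a CpG at the same distance from the start in the methylation tables, whose coordinates are mm9. The sequences run 5′ to 3′ toward the start, with CG in capitals, and were chosen to set the upstream start of Hk1 beside its downstream start and beside the CpG-rich starts of other members.
Hk1 upstream start, chr10:62379909-62380158, minus strand: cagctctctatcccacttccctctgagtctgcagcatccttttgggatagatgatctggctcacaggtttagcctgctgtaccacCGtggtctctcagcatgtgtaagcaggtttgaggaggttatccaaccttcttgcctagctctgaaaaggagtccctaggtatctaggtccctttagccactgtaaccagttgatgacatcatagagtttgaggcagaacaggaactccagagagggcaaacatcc
Hk1 downstream start, chr10:62340422-62340671, minus strand: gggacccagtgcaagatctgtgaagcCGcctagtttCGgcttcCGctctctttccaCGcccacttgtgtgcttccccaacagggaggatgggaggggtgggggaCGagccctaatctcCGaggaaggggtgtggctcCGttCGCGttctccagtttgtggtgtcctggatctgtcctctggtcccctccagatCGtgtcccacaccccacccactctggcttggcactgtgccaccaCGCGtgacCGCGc
Hk2, chr6:82774455-82774704, minus strand: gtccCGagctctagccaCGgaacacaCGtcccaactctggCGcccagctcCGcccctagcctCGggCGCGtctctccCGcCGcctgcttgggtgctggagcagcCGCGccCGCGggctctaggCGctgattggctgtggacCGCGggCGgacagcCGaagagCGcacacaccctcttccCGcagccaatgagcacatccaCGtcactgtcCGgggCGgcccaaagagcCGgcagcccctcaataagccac
Ldha, chr7:46845554-46845803, plus strand: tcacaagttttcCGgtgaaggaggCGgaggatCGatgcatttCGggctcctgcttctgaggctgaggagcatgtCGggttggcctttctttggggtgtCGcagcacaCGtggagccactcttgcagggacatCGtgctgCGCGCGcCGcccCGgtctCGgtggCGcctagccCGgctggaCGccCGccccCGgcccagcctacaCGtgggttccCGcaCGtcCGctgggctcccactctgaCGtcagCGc
Zfp36l1, chr12:80113014-80113263, minus strand: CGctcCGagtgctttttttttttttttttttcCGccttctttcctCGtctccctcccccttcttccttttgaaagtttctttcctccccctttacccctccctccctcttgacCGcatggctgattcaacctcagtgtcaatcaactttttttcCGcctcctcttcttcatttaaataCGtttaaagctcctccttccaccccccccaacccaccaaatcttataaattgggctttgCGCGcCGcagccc
Oat, chr7:132576399-132576648, minus strand: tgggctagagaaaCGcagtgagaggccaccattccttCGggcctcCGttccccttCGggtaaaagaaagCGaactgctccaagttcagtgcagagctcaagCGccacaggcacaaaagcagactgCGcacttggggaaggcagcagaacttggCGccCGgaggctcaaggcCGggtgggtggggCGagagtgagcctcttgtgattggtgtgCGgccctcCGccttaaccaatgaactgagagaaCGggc

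Hk2 and Ldha each held 25 CpGs in these 250 bases, more than 89.3% of the 32851 promoters of that length, whose median was 6. Oat and the downstream start of Hk1 held 14 each, and Zfp36l1 held 10. The upstream start of Hk1 held a single CpG, and 7.9% of all promoters held none. In the bisulfite libraries that single CpG was methylated in 100% of 14 young and 95.5% of 22 old reads, whereas the 14 CpGs before the downstream start of Hk1 were methylated in 12.4% of 498 young and 6.99% of 372 old calls. The stretches of Hk2, Ldha, Zfp36l1 and Oat were methylated in 3.04%, 2.41%, 3.81% and 10.2% of young calls and in 2.33%, 5.62%, 10.1% and 11.3% of old calls.

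Of the 9 members that passed the filter on low counts, 5 were lower in old β cells (Hk1, Ldha, Slc16a1, Zfp36l1 and Tgm2) and 0 were higher, by edgeR's quasi-likelihood test with Benjamini-Hochberg adjustment over 15544 genes. Among all genes tested, 7.93% were called lower and 3.17% higher. The median log2 fold change of the tested members, old over young, was −4.75, beside −0.05 over all genes tested. In 8 of the 9 tested members, every old library lay below both young libraries, which held for 24.5% of all genes tested. The untested Hk2 was ordered in this way too, by a margin of 0.213 against 0.217 CPM. At an unadjusted p under 0.05, 7 of the 9 tested members passed, but the share of all tested genes that did so was not counted.

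**Figure D1:**
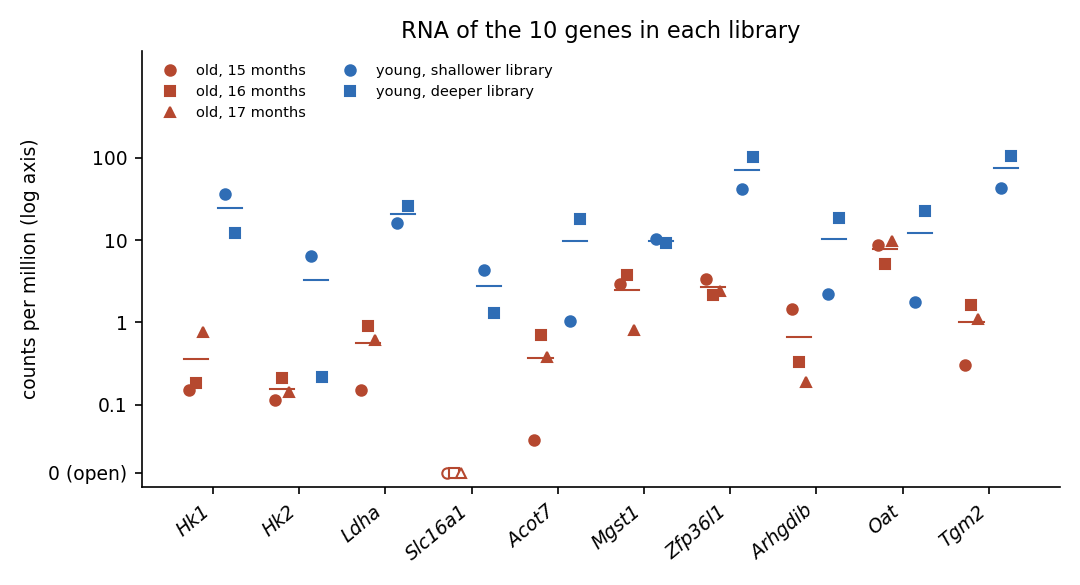
CPM on a log axis for the 10 genes in the 3 old (red) and 2 young (blue) libraries; bars are group means, and open symbols stand for no count. In every gene but Oat the old libraries lie below both young ones, and the 2 young libraries lie far apart for Hk2, Acot7, Arhgdib and Oat.

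Among the genes of glucose and lactate handling, Hk1 stood at 0.151, 0.182 and 0.763 CPM in the old libraries of 15, 16 and 17 months and at 36.7 and 12.4 CPM in the shallower and deeper young library. Both young libraries were high and no old one reached 1 CPM. The mean was 0.365 ± 0.345 CPM (SD, n = 3) in old and 24.5 ± 17.2 CPM (SD, n = 2) in young, a log2 fold change of −6.08 (SE 0.97, adjusted p = 0.0118 by edgeR). Ldha stood at 0.151, 0.911 and 0.620 CPM in old and at 16.0 and 25.9 CPM in the shallower and deeper young library. Its groups did not overlap, with a log2 fold change of −5.21 (SE 0.87, adjusted p = 0.0141). The call of Hk1 was lost without the 15-month library (adjusted p = 0.0522) and that of Ldha without the 17-month library (adjusted p = 0.069).

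Slc16a1, the monocarboxylate carrier, had no count in any old library and 29 and 18 counts in the shallower and deeper young library (4.31 and 1.30 CPM). The pooled young level was 61.4 times a floor of 3 counts over the pooled old libraries. That floor bounds the old side alone, and the spread between the young libraries is not in the ratio. Slc16a1 was called lower by edgeR, with a log2 fold change of −8.82 (SE 2.02, adjusted p = 0.0457). That call was lost without any one of the 3 old libraries (adjusted p 0.0879 to 0.109) or without the shallower young library (0.109), and with no filter on low counts (0.0567). Hk2, the second high-affinity hexokinase, was at 0.113, 0.213 and 0.143 CPM in old, and at 6.39 and 0.217 CPM in the shallower and deeper young library. Its 43 counts in the shallower young library stood alone, since the other 4 libraries held 3 to 7 counts each. Hk2 did not pass the filter on low counts. Without that filter its log2 fold change was −4.22 (adjusted p = 0.21), and DESeq2 gave −4.54 (adjusted p = 0.0381).

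Zfp36l1, which binds AU-rich elements of messenger RNAs and speeds their decay, stood at 3.39, 2.19 and 2.43 CPM in old and at 41.6 and 101.8 CPM in the shallower and deeper young library. The old libraries lay close together and far under both young ones. The mean was 2.67 ± 0.637 CPM (SD, n = 3) in old and 71.7 ± 42.6 CPM (SD, n = 2) in young, and the log2 fold change was −4.75 (SE 0.50, adjusted p = 0.0044). Tgm2, the tissue transglutaminase that crosslinks proteins, stood at 0.301, 1.61 and 1.10 CPM in old and at 43.5 and 105 CPM in young. Its log2 fold change was −6.20 (SE 0.73, adjusted p = 0.00523). Zfp36l1 and Tgm2 were called lower in all 9 other fits that were run, and they were the 2 members with the highest level per kilobase in each young library.

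Acot7, a cytosolic acyl-CoA thioesterase, did not pass the test. It stood at 0.0377, 0.698 and 0.381 CPM in old and at 1.04 and 18.2 CPM in the shallower and deeper young library (log2 fold change −4.67, SE 1.49, adjusted p = 0.0785). Arhgdib, a regulator of small GTPases that is known from blood cells, stood at 1.47, 0.334 and 0.191 CPM in old and at 2.23 and 18.5 CPM in young (log2 fold change −3.95, SE 1.27, adjusted p = 0.0812). In both genes the shallower young library lay close to the highest old one. Without that library Acot7 and Arhgdib were called lower (adjusted p = 0.00652 and 0.00993), as with DESeq2 (adjusted p = 0.0109 and 0.0135). Without the deeper young library their log2 fold changes were −1.45 and −1.72 (adjusted p = 0.659 and 0.487).

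Mgst1, a membrane-bound glutathione transferase, stood at 2.94, 3.79 and 0.810 CPM in old and at 10.2 and 9.34 CPM in young, where the 2 libraries were the closest of any member. The log2 fold change of −1.96 (SE 0.87) did not pass (adjusted p = 0.178), nor did it in any of the other 9 fits. Oat, the mitochondrial ornithine aminotransferase, was the member whose groups overlapped. It stood at 8.74, 5.13 and 9.87 CPM in old and at 1.78 and 22.6 CPM in the shallower and deeper young library, so that the old libraries lay between the young ones. Its log2 fold change of −0.63 (SE 0.93, adjusted p = 0.693) turned to 2.16 (adjusted p = 0.0826) without the deeper young library.

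**Figure D2:**
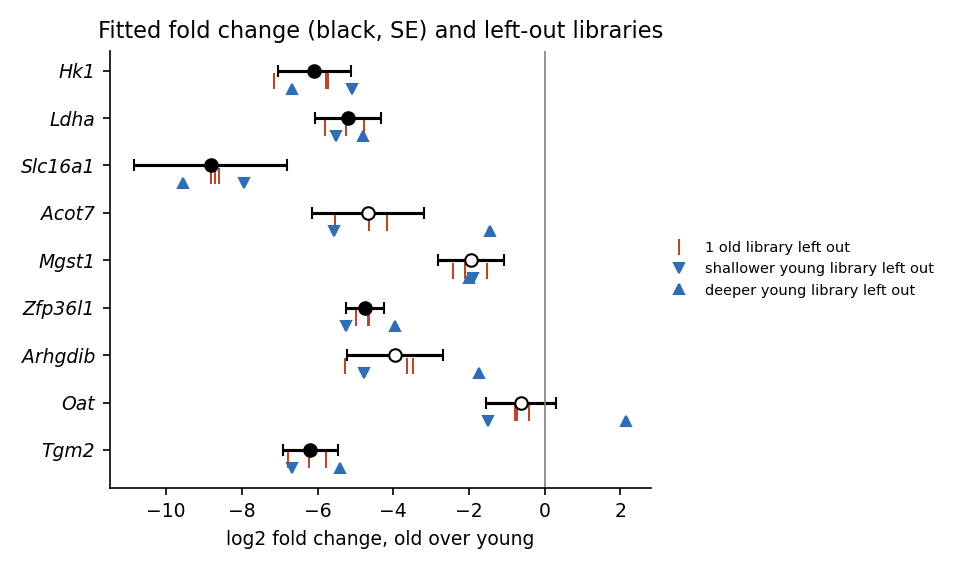
Log2 fold change, old over young, of the 9 tested genes (black, with SE; filled where the adjusted p is under 0.05), with the values when 1 old library (red ticks) or 1 young library (blue triangles) was left out. Oat crosses 0 without the deeper young library, and the values of Acot7 and Arhgdib move most toward 0 there.

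The young libraries disagreed gene by gene. From the shallower to the deeper one, Acot7 was 17.5 times, Oat 12.7 times and Arhgdib 8.28 times as high, Zfp36l1, Tgm2 and Ldha were 2.45, 2.42 and 1.62 times as high, and Mgst1, Hk1 and Slc16a1 were at 0.911, 0.337 and 0.302 of it. Hk2 had the ratio farthest from 1, at 0.0344 (95% exact Clopper-Pearson counting interval 0.00682 to 0.107), from 3 counts against 43. The summed α cell markers were 15.8 times as high in the deeper library, the stellate and fibroblast markers 8.76 times and the red cell markers 4.84 times. The ratio was 3.04 for δ and PP cell, 1.71 for endothelial, 1.53 for acinar and 1.41 for macrophage and lymphocyte markers. It was 1.03 for dividing cell, 0.852 for duct and 0.815 for β cell markers. The part of these marker values in the spread of the members was not tested.

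On a per-length scale (CPM per kilobase of transcript), the young order was Zfp36l1 (24.1 ± 14.3, SD, n = 2), Tgm2 (21.0 ± 12.3), Ldha (12.97 ± 4.32), Mgst1 (10.4 ± 0.682), Arhgdib (9.45 ± 10.5), Acot7 (6.41 ± 8.09), Hk1 (5.98 ± 4.19), Oat (5.65 ± 6.82), Slc16a1 (0.630 ± 0.477) and Hk2 (0.591 ± 0.781). Each pair of neighbours in this order differed by less than the larger of their SDs. In old cells the order was Oat (3.67 ± 1.15, SD, n = 3), Mgst1 (2.66 ± 1.63), Zfp36l1 (0.896 ± 0.214), Arhgdib (0.608 ± 0.640), Ldha (0.347 ± 0.237), Tgm2 (0.283 ± 0.186), Acot7 (0.248 ± 0.220), Hk1 (0.0889 ± 0.0839), Hk2 (0.0280 ± 0.00914) and Slc16a1 with no count. By the same measure neighbours in the old order did not differ beyond their spread, apart from Mgst1 and Zfp36l1 and from Hk2 and Slc16a1. Oat and Mgst1 headed the old order in each of the 3 old libraries. Oat ranked ninth and sixth in the shallower and deeper young library.

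Of the other disallowed genes, 11 of 20 tested were called lower and 0 higher, with a median log2 fold change of −4.49. Nfib, Zyx and Ndrg2 were among those called, with log2 fold changes of −5.01, −3.82 and −7.46. Pdgfra, a growth factor receptor of mesenchymal cells, had at most 0.0377 CPM in old and 1.49 and 34.0 CPM in the shallower and deeper young library (adjusted p = 0.0151). Igfbp4 was also called (log2 fold change −4.76, adjusted p = 0.0233), whereas Cxcl12 (−2.23, adjusted p = 0.323) and Smad3 (−0.82, adjusted p = 0.557) were not.

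Of 36 tested genes of glucose phosphorylation and of pyruvate and lactate handling, 1 was called lower and 0 higher, with a median log2 fold change of 0.50. Gpd2, the mitochondrial glycerol phosphate shuttle enzyme, gave −0.04 (adjusted p = 0.948), and Ldhb, the other main lactate dehydrogenase subunit, gave 0.67 (adjusted p = 0.368). Slc16a7, a relative of Slc16a1, was the gene called lower, at 0.0753, 0 and 0 CPM in old and 2.97 and 7.46 CPM in young (adjusted p = 0.0332). Slc16a3, the lactate exporter of glycolytic cells, had no count in old and in the shallower young library and 0.434 CPM in the deeper one. Hk3 gave −3.26 (adjusted p = 0.0918), and Hkdc1, not tested, stood at 19.0 and 0.0724 CPM in the shallower and deeper young library.

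Of 24 tested close relatives of the other members, 1 (F13a1, a transglutaminase of clotting, log2 fold change −5.76, adjusted p = 0.0284) was called lower and 0 higher, with a median of −0.94. Arhgdia (−0.56, adjusted p = 0.128), Zfp36l2 (−0.88, adjusted p = 0.302) and Mgst3 (−0.22, adjusted p = 0.874) did not pass. Around Oat, 16 enzymes of ornithine, proline and glutamate were tested. Pycr1 and Aldh18a1, which make proline from glutamate, rose. Pycr1 stood at 44.0, 52.6 and 43.8 CPM in old and at 8.17 and 13.4 CPM in young (log2 fold change 2.11, adjusted p = 0.0195), and Aldh18a1 gave 1.06 (adjusted p = 0.0414). Arg1, arginase, was called lower (−3.76, adjusted p = 0.0408), and Glud1 gave 0.04 (adjusted p = 0.97).

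The genes whose profile over the 5 libraries was nearest to the mean profile of the tested members were Map2k6, Plxnc1, Eppk1, Ifitm2 and Pnliprp1, by Euclidean distance of log2(CPM + 1) deviations (0.332 to 0.419, of 11211 genes). The members themselves lay 1.23 (Ldha) to 3.56 (Oat) from that mean, farther than these 5.

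H3K27me3 covered the start, within 1 kb to either side, of 9 of the 10 genes in young cells (all but Tgm2) and of 9 in old cells (all but Mgst1). The background was 27.9% of 22495 genes in the young and 41.5% in the old list, and 8 members had it in both ages against 23.1% of genes. No member start overlapped a young H3K27ac region, where 34.4% of genes had one. Of all genes called lower in RNA, 58.7% had young H3K27me3, 76.2% had old H3K27me3 and 10.1% had H3K27ac at the start. In young cells H3K27me3 was at the start of 18 of 21 other disallowed genes, 5 of 6 α cell and 4 of 4 δ and PP cell markers. It was also at 7 of 10 stellate and fibroblast, 6 of 10 acinar, 4 of 9 endothelial and 4 of 11 macrophage and lymphocyte markers. Duct (2 of 8), dividing cell (1 of 6) and red cell markers (0 of 2) lay below the 27.9% of all genes. Of 9 β cell markers, 0 had it in young and 4 in old cells, and all 9 had young H3K27ac.

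The regions differed widely in width. In young cells they spanned 9 to 205 kb over the 9 starts (median 57 kb), while the median of the whole list was 9 kb. Acot7 lay in a young region of 205 kb (chr4:151469001-151674000, mm9) whose score was higher than 99.9% of the list, and in an old region of 228 kb. Ldha lay in 66 kb (chr7:54074001-54140000, percentile 99.8) in young and 61 kb in old. Oat lay in 142 kb in young and 188 kb in old, and Hk2 in 94 kb and 265 kb. Slc16a1 had 11 kb in young and 172 kb in old. Zfp36l1 was covered by a narrow region, 12 kb in young and 11 kb in old, that ranked high all the same (percentiles 99.1 and 92.3). The narrowest young region, 9 kb, was at Arhgdib (percentile 54.8), and Tgm2 had 6 kb at percentile 37.2 in old only. Young and old lists hold 31187 and 38007 regions and 1 sample each, so a region in only one of them shows no change.

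**Figure D3:**
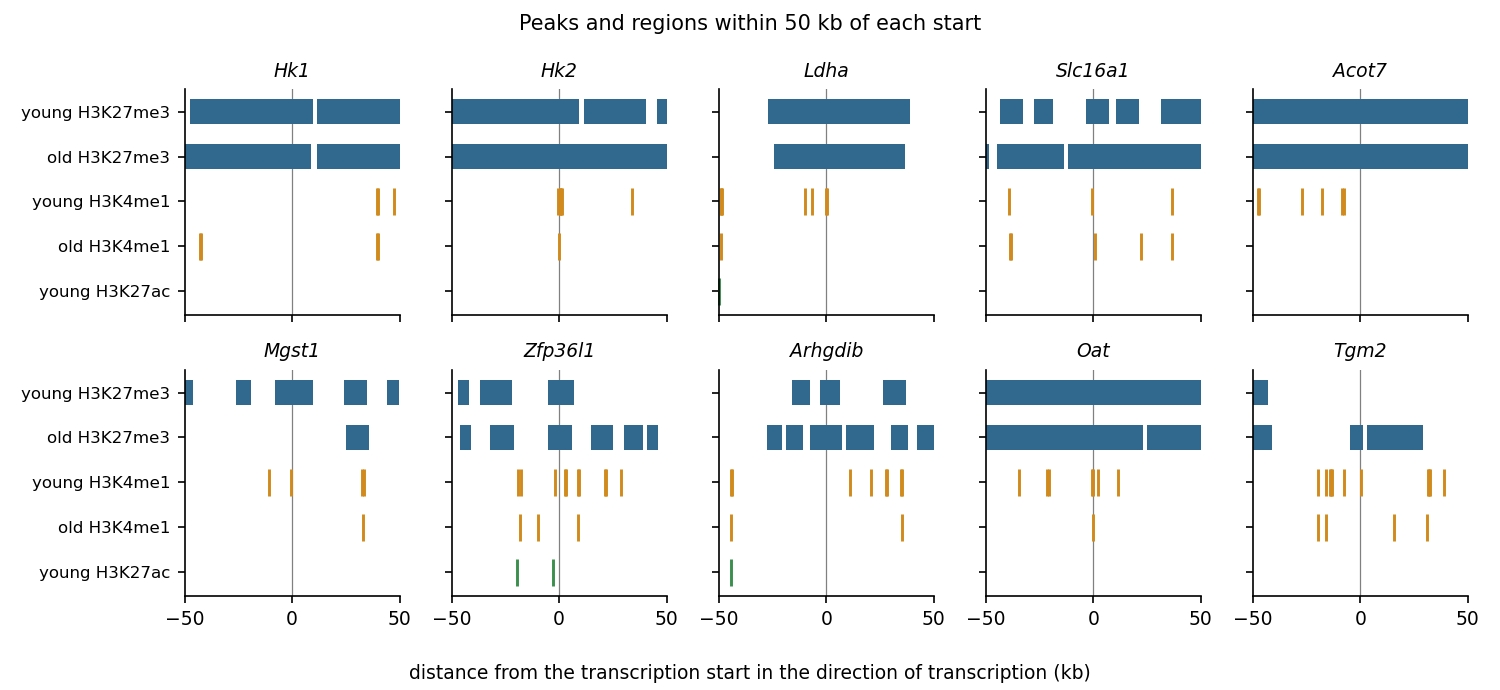
Peaks and regions of each deposited list within 50 kb of the start of each gene, drawn in the direction of transcription. H3K27me3 regions are bars to scale, and the narrower H3K4me1 peaks and H3K27ac regions are ticks at their centres. H3K27me3 (blue) lies over every start but Tgm2 in young and Mgst1 in old, and H3K27ac (green) appears within 50 kb of Zfp36l1, Arhgdib and, at the edge of its window, Ldha.

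H3K27ac lay within 50 kb of the start in 3 members. The number of such regions per gene had a median of 1 over all genes (quartiles 0 and 2). The share of all genes with any such region was not counted. Zfp36l1 had 2 young regions, the nearest 2141 bases from its start (chr12:81216141-81217477, mm9), and Arhgdib and Ldha had 1 each, at 43680 and 49457 bases. H3K4me1 overlapped the start of 6 members in young cells (Hk2, Ldha, Slc16a1, Mgst1, Oat and Tgm2; 45.6% of genes) and of 3 in old cells (Hk2, Slc16a1 and Oat; 30.0%). These counts use the start of the transcript taken for RNA. H3K4me1 also lay at the downstream start of Hk1 in the young and the old list. In young cells it lay within 1 kb of another start of Acot7. In 5 members (Hk2, Ldha, Slc16a1, Mgst1 and Oat) H3K4me1 and H3K27me3 lay at the start together in young cells. The joint share over all genes was not counted, so this number has no background to be read against. Within 50 kb there were 65 young and 22 old H3K4me1 peaks, 3 to 11 per gene in young and 0 (Acot7) to 5 (Slc16a1) in old. Over all genes the median was 5 young and 2 old peaks, from lists of 77291 and 36207 peaks. Of these, 8 young and 8 old peaks overlapped a peak of the other age, against 16.7% and 35.6% of the lists. A young H3K27ac region overlapped 3 of the 65 young and 1 of the 22 old peaks, against 9.14% and 12.9% of the lists.

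DNA methylation near the starts, as the share of methylated calls at CpGs with at least 5 reads in both libraries, lay at 3 levels. Hk2 (5.59% young, 4.27% old), Ldha (9.35%, 7.30%), Slc16a1 (4.87%, 7.23%) and Oat (7.40%, 11.3%) were low over 75 to 166 CpGs. Zfp36l1 (16.1%, 22.8%), Tgm2 (25.2%, 26.1%), Acot7 (22.4%, 31.9%) and Mgst1 (22.4%, 13.9%) were in between. Hk1 at its upstream start (70.9%, 74.6%) and Arhgdib (58.9%, 72.1%) were high, over 20 and 19 CpGs. The median of 21106 gene starts was 11.6% in young and 11.3% in old.

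Arhgdib was the single member called, by Fisher's exact test, as higher in the old library, and 0 were called lower; 3.66% of starts were called higher and 4.26% lower. Its share rose from 58.9% (95% Wilson interval 52.9 to 64.6, 270 calls) to 72.1% (67.7 to 76.2, 423 calls; adjusted p = 0.000998). Single CpGs moved both ways, with 9 of 19 at least 20 points higher and 5 at least 20 points lower in old. The intervals cover counting error only, and with 1 library per age the test compares these libraries and not the ages. The call depends on the settings: it was lost at 1 read per CpG and in windows of 500 bases or 2 kb, where Acot7 was called higher instead (21.5% to 35.8% in 500 bases; adjusted p = 1.26e-11) and Mgst1 lower (16.1% to 4.92% in 500 bases; adjusted p = 7.74e-10).

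**Figure D4:**
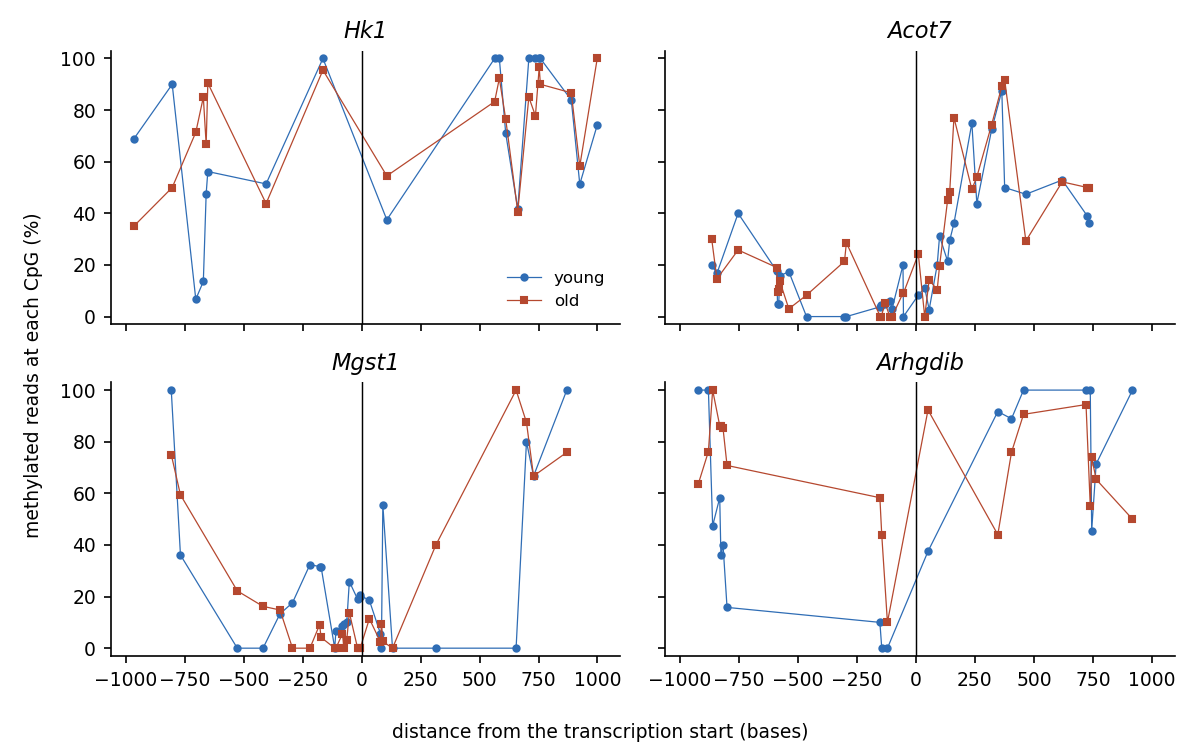
Share of methylated reads at each CpG within 1 kb of the start, against distance from the start in bases, in young (blue) and old (red) cells for Hk1, Acot7, Mgst1 and Arhgdib. CpGs of Mgst1 are mostly low next to the start and higher away from it. Those of Acot7 are mostly low upstream of the start and mostly higher downstream, and those of Arhgdib upstream of the start are mostly higher in old.

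For Hk1 and Acot7 the choice of start decided the level. Ldha was low at both of its starts, at 9.35% and 12.6% in young and at 7.30% and 13.5% in old. Its difference, old minus young, was −2.05 points at the start used for RNA and 0.91 points at the other. At the downstream start of Hk1, 39487 bases into the gene, 17.8% of 2165 young and 11.4% of 2826 old calls were methylated. Acot7 had 3 starts, at 3.47%, 22.4% and 85.1% in young and 7.60%, 31.9% and 81.5% in old. The RNA table gave the transcripts of Hk1, and likewise those of Acot7, nearly equal counts, so it does not say which start was used.

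Across the 50 kb to either side of the start, methylation was higher in old for 6 members and lower for 4. A rise was also the more common direction over all genes, with a median of 57.1% in young and 60.2% in old. The share of all genes that rose was not counted, so the count of 6 has no share to be read against. Zfp36l1 went from 39.6% to 47.6%, a difference of 8.01 points, higher than in 95.8% of genes, and Ldha (6.03 points), Acot7 (5.83), Oat (4.91), Slc16a1 (4.77) and Tgm2 (3.25) were also above the median difference of 2.57 points. Hk1 (−2.61 points, percentile 3.1), Arhgdib (−1.89, percentile 5.7), Hk2 (−0.62, percentile 14.1) and Mgst1 (−0.62, percentile 14.2) were lower. The Wilson intervals reached at most 0.79 points to either side, again for counting error only.

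**Figure D5:**
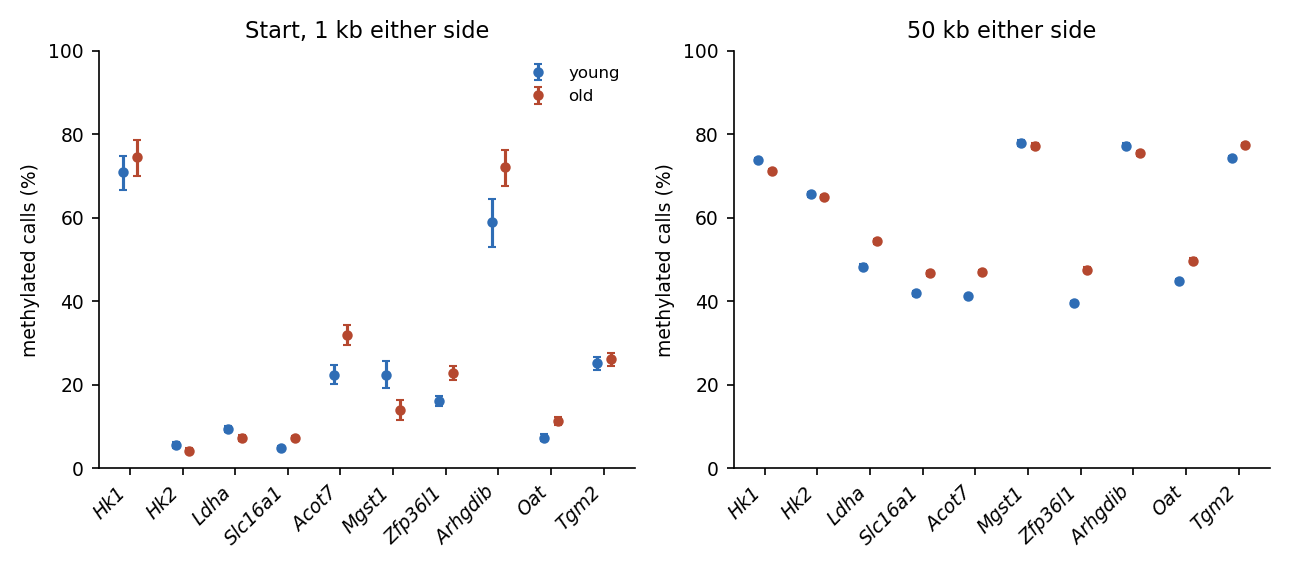
Share of methylated calls (%) within 1 kb (left) and 50 kb (right) of each start in the young and the old bisulfite library, with 95% Wilson intervals for counting error. Hk1 and Arhgdib are the 2 genes above 50% on the left, and Zfp36l1 shows the widest gap on the right.

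Within H3K4me1 peaks near the members, 22 young peaks could be tested, of which 3 were lower in old (background 15.0% of 12021 peaks) and 1 was higher (9.65%). The lower ones were at Hk2, 752 bases into the gene (chr6:82723633-82723759, 16.3% of 465 young and 2.97% of 370 old calls; adjusted p = 8.19e-10), at the downstream start of Hk1 (chr10:61803105-61803231, 18.0% to 7.17%; adjusted p = 1.12e-07) and 10903 bases into Arhgdib (chr6:136879272-136879398, 51.1% to 26.7%; adjusted p = 1.09e-05). The higher one lay upstream of Acot7, at −26897 bases from its start (chr4:151533283-151533409, 0.654% to 11.1%; adjusted p = 4.08e-07). Of 6 old peaks tested, 2 were lower (14.8% of 5327) and 0 higher (9.84%), both at Hk1: the same downstream start, and a peak at −42482 bases from the upstream start (chr10:61885078-61885198, 43.6% to 12.5%; adjusted p = 1.74e-10).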

How the data were processed

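RNA, histone marks and CpG methylation were measured in sorted mouse β cells of 2 ages. The members and gene lists were chosen with earlier results of these data known. The authors deposited whole-number read counts per RefSeq transcript; each gene was represented by its transcript of highest total count. The age groups were compared in edgeR 4.0.16 in R 4.3.3 (TMM factors, filterByExpr, quasi-likelihood test, two-sided, Benjamini-Hochberg over all genes tested, threshold 0.05). CPM were computed from those counts with the TMM-adjusted totals. Named genes were all members, from each list up to 4 called genes ranked by adjusted p, a set of relatives, and up to 5 genes with the nearest profile. A second deposited table, described as FPKM, holds a signal equal to count over transcript length; it gave transcript positions and relative lengths, and 1 of its columns, identical to another library's in 100% of entries, was not used. Per the submitters' processing notes, CASAVA 1.8.2, Bowtie 0.12.7, STAR, HOMER, edgeR and the build mm9 were used, with no step named. Whether counting used strand is not stated in the labels, so antisense or overlapping genes may share reads.

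HOMER called the H3K4me1 and H3K27ac peaks on single libraries against input, per the file headers, with a deposited score and fold ratio over input. The deposited H3K27me3 lists carry a score and a p-value column without header, and no label names the caller. Scores are the authors' own and ranked peaks inside one list alone. The deposited methylation tables give the methylated fraction and the coverage count of each CpG; methylated calls were recovered as their product. The libraries hold 18795223 young (median coverage 16) and 19569012 old CpGs (median coverage 18). Fisher's exact test, two-sided, was run on calls summed over CpGs with at least 5 reads in both libraries, in windows of at least 5 such CpGs, adjusted over all windows and called at an adjusted p under 0.05 and at least 10 points. Calls on the same reads are not independent, so these p-values are too small. The tests were checked on simulated data. There the methylation calls were independent, so that check says nothing of calls on the same reads. The simulated RNA counts took their spread from the fit itself. Separate pools of mice stand behind the RNA libraries, per the labels' design text. Alternatives are listed in the closing section. The input libraries were not analysed here. Some genes of the lists are not reported here by name.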

Additional observations from a re-analysis of the deposited data

How the results depend on the processing

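Among the RNA counts, members called lower numbered 5; DESeq2 gave 8, and leaving out 1 library gave 3 to 6 (3 without the 15-month or the 17-month library). No setting called a member higher. Zfp36l1 and Tgm2 were called in all fits. With 1 library left out, the log2 fold change of Oat ranged from −1.51 to 2.16, reversed without the deeper young library. A lone young library is assumed to vary like the old ones. The median log2 fold change of all genes tested moved from −0.05 to −0.17 with RLE factors, which change the scaling alone. It was −0.27 with no filter and −0.52 with DESeq2, which also changes the genes tested and the model. Over all genes, DESeq2 called 2968 lower and 1185 higher, against 1232 and 493; leaving out 1 old library gave 273 to 391 lower and 40 to 95 higher, and leaving out 1 young library 1946 to 3099 lower and 1296 to 2368 higher. The other disallowed genes called lower ranged from 5 to 15 with 1 library left out. In the glucose and lactate list, no filter gave 2 lower and 3 higher, DESeq2 6 lower and 3 higher, and leaving out 1 library 0 to 3 lower and 0 to 11 higher. Relatives called lower were 4 with DESeq2 and 0 to 4 with 1 library left out, and those called higher 0 to 1. Around Oat, RLE factors gave 2 lower and 1 higher, DESeq2 3 lower, and leaving out 1 library 0 to 2 lower and 0 to 5 higher. The cause of these shifts was not tested.

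Promoter members called higher were 0 at 20 points and at 1 read per CpG and 2 at 10 reads (Acot7 and Arhgdib), and windows of 500 bases and of 2 kb each gave 1 lower (Mgst1) and 1 higher (Acot7). Young H3K4me1 peaks called lower were 1 at 20 points or within 10 kb, and those called higher 0 at 20 points, within 10 kb or in the higher-scoring part of the list. Old peaks called lower were 1 at 20 points or in the higher-scoring part, and 0 within 10 kb. The member counts for H3K27me3 stayed at 8 or 9 of 10 and those for H3K27ac at 0 in each overlap setting run. No paired analysis was possible because the young RNA columns carry no replicate number and the other data have 1 library per age. A floor of 3 counts equals 0.0911 to 0.143 CPM in the old libraries and 0.217 CPM in the deeper young one, and Hk2 held 3 to 7 counts in those libraries and Slc16a1 none in the old ones.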

Other observations

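The young libraries held genes that were seen in one and not in the other; this was noticed after seeing the values, and its cause was not tested. At least 5 CPM in the shallower young library and no count in the deeper one was found for 620 genes, of which 241 had no count in any old library. The opposite was found for 148 genes, of which 12 had none in old. Between any 2 old libraries the number was 0 to 7. Relatives of the disallowed genes were among them: the transglutaminases Tgm7, Tgm1 and Tgm3 stood at 32.5, 16.5 and 7.57 CPM in the shallower young library with no count in the deeper one.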
